A study of Mus musculus with 2 samples.

Results

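The cells described here are the melanoma cells that 2 single-cell RNA libraries of mouse tumors held among sorted leukocytes. They were chosen by transcripts, with no upper limit on depth. Every cell barcode with at least 500 UMIs (unique molecular identifiers, each counting 1 captured transcript), at least 200 genes and at most 10% mitochondrial UMIs was kept. A kept cell was selected when it held a UMI of at least 4 of 8 marker genes and none of 3 leukocyte genes. The marker genes were Col8a1, Tm4sf1, Cald1, Sparc, Serpinh1, Cav1, Crabp1 and Phgdh, and the leukocyte genes were Ptprc, Csf1r and Cd3e. The rule selected 342 of 10363 cells, 109 of 5504 in the control library and 233 of 4859 in the library from NK cell-depleted hosts, called the depleted library.

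Both libraries came from melanomas taken on day 4 from C57BL/6 hosts aged 8 weeks. The implanted line, derived from a Braf-mutant, p16INK4a-deficient mouse model with melanocyte-driven Cre (Tyr::CreERT2), had been made deficient for Ptgs1 and Ptgs2, the genes of the cyclooxygenases COX-1 and COX-2, by CRISPR. The titles and the series text call both libraries KO, while the genotype field of the labels reads wildtype. The control hosts were untreated. The NK cell-depleted hosts received 200 µg of anti-NK1.1 (PK136) and 30 µg of anti-asialo GM1 antibody per mouse on days 0 and 2. CD45+ cells were sorted from 10 pooled tumors per group, and parental, Ptgs-competent melanoma cells were spiked into each sample. The selected cells can therefore be spiked parental cells or implanted Ptgs-deficient cells that passed the sort, and these cannot be told apart in transcript counts. There was 1 library per group, so differences between the groups were read without replicates and without p-values. All intervals are 95% intervals for counting error only.

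Melanoma cells move between states. In the pigmented state, MITF and SOX10 drive the enzymes and structural proteins of the melanosome. In the dedifferentiated, mesenchymal-like state these genes are low, while AXL, AP-1 factors, YAP/TEAD targets and matrix genes are high. COX-2 converts arachidonic acid, released by cytosolic phospholipase A2, towards prostaglandin E2, a lipid that melanoma cells can secrete and that acts on leukocytes.

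The selected cells were far deeper than the leukocytes around them. Their median was 25309 UMIs in control and 26713 in the depleted library, against 4253 and 5001.5 in all other kept cells. The deepest cell held 150158 UMIs in control and 100331 in the depleted library. The median selected cell expressed 4882 genes in control and 5299 in the depleted library, with 4.48% and 5.22% mitochondrial UMIs. Above the upper limits that the study set, 15000 UMIs or 4000 genes, lay 90 selected cells in control (82.6%) and 198 in the depleted library (85.0%). They made up 42.5% and 56.1% of all cells above those limits, so only 19 and 35 selected cells lay within them. All 8 marker genes were detected in 86 control cells and 202 NK cell-depleted cells.

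**Figure D1:**
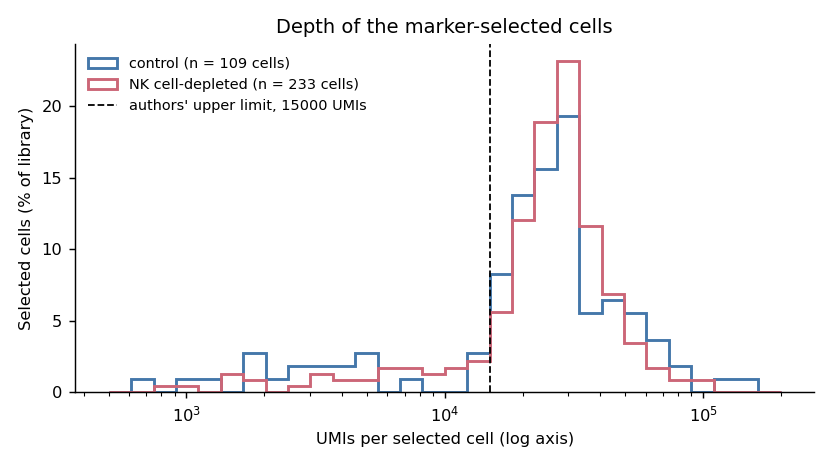
Share of the selected cells (percent, vertical axis) by UMIs per cell (log axis) in the control and NK cell-depleted libraries, with a line at the upper limit of 15000 UMIs. Most selected cells of both libraries lie to the right of the line, around medians of 25309 and 26713 UMIs.

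The selected cells made up 1.98% of kept control cells (1.63 to 2.38%) and 4.80% of kept NK cell-depleted cells (4.21 to 5.43%). The ratio of these shares was 2.42 (1.92 to 3.07). By the methods both samples received parental cells at the same share. The number of parental cells that entered and the CD45 gate both bear on the share found, and their part in it was not tested. With at most 5% mitochondrial UMIs the ratio was 1.67. Cells just inside the rule, with exactly 4 marker genes, numbered 7 in control and 3 in the depleted library, with median depths of 2719 and 985 UMIs. Cells just outside it, with 3 marker genes and no leukocyte gene, numbered 12 and 9, with median depths of 1578.5 and 1190 UMIs. A further 33 control cells and 53 NK cell-depleted cells had the marker genes but also a UMI of a leukocyte gene, and were left out. Of the 7 barcodes called in both libraries, none was selected.

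Levels are given as CPM, the UMIs of a gene per 1000000 UMIs summed over the selected cells of a library, and each pair of values names control first. A UMI counts 1 molecule at its 3′ end, so these levels need no correction for transcript length. The sums were 3138417 UMIs in control and 6486276 in the depleted library. A gene with 0 UMIs can thus lie anywhere up to 0.956 CPM in control and 0.463 CPM in the depleted library. As a reference, the leukocytes were the kept cells with a UMI of a leukocyte gene and at most 1 marker gene, 4992 in control and 4301 in the depleted library. For counts per cell, every cell with at least 10000 UMIs was thinned at random to 10000. This left 92 control and 207 NK cell-depleted selected cells, whose medians before thinning were 27774.5 and 28078 UMIs, and left out 17 and 26. The 440 and 475 leukocytes that could be thinned had medians of 12074.5 and 12473 UMIs, against 4413 and 5144 in the whole reference. Shares of thinned leukocytes thus describe only the deepest leukocytes.

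The genes of the rule were high by construction. Cald1, an actin-binding protein, stood at 703 and 639 CPM. Phgdh, the first enzyme of serine synthesis from glycolysis, stood at 699.7 and 759 CPM. Serpinh1, the collagen chaperone, was at 557 and 685 CPM, and Sparc, a secreted matrix-binding protein, at 553 and 528 CPM. The membrane protein gene Tm4sf1 was at 467 and 559 CPM, and Col8a1, a collagen of basement membranes, at 399 and 507 CPM. Crabp1, which binds retinoic acid, was at 306 and 346 CPM, and Cav1, the core protein of caveolae, at 234 and 261 CPM. In the leukocytes no gene of the rule exceeded 6.41 CPM, which also follows in part by construction. That reference took only cells with at most 1 marker gene.

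Genes outside the rule that stood highest over the other kept cells, without a test because the same cells had been selected, included the following. The other kept cells include the 33 and 53 cells with the marker genes and a leukocyte UMI. In the leukocyte reference Cavin2 stood at 0.590 and 0.902 CPM. Cavin2, a coat protein of caveolae, was at 635 and 658 CPM and 27.05-fold over the other cells in control and 20.2-fold in the depleted library. Cyr61 was 35.02-fold and 20.1-fold over them, and Fbln2, an elastic fibre protein, 33.8-fold and 20.1-fold. The BMP antagonist Grem1 was at 194 and 177 CPM, the activin inhibitor Fst at 51.6 and 59.4 CPM, the laminin chain Lamb1 at 197 and 202 CPM and the guidance ligand Slit2 at 86.3 and 98.5 CPM. Ghr, the growth hormone receptor, stood at 42.7 and 59.5 CPM, and Cth, which makes cysteine, at 102 and 105 CPM. The remaining genes of the leading 20 were 1700012B09Rik, Arhgef28, Cacna2d1, Bcat1, Klhdc8a, Kcnip1, Ddah1, CT025619.1, Mxra8, Hspb2 and Gm6634, all with at least 19.4-fold and at most 34.5-fold higher levels than in the other cells of a library.

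Markers of other cell types were low in the selected cells. For leukocyte types this follows in part from the selection. The rule excluded cells with a UMI of a leukocyte gene, and the leukocyte reference required such a UMI. The 15 macrophage and monocyte genes summed to 74.9 CPM in control and 62.1 CPM in the depleted library, against 24253.6 and 23115.5 CPM in the leukocytes. Lyz2, the macrophage lysozyme, had a UMI in 16.3% and 15.9% of thinned selected cells and in 95.9% and 97.3% of thinned leukocytes. The lymphocyte list summed to 2.87 and 0.617 CPM, and the neutrophil list to 6.37 and 3.39 CPM. Of the fibroblast genes, Col1a1, Dcn and Lum had 0 UMIs, and the list reached 16.6 and 19.0 CPM, led by Col3a1 at 9.88 and 11.3 CPM and Pdgfra at 6.37 and 6.78 CPM. The endothelial list reached 55.8 and 74.8 CPM, nearly all of it Flt1 (47.5 and 61.2 CPM), with Cdh5, Kdr, Tie1, Emcn and Cldn5 at 0. The keratinocyte list reached 19.1 and 10.3 CPM, nearly all Krt10 (18.5 and 9.40 CPM), with Krt5, Krt14 and Epcam at 0. The pericyte list summed to 4.78 and 7.71 CPM, and the Schwann cell list to 3.505 and 4.93 CPM. The adipocyte and muscle list summed to 0 CPM in control, with Adipoq and Acta1 at 0 in both libraries.

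**Figure D2:**
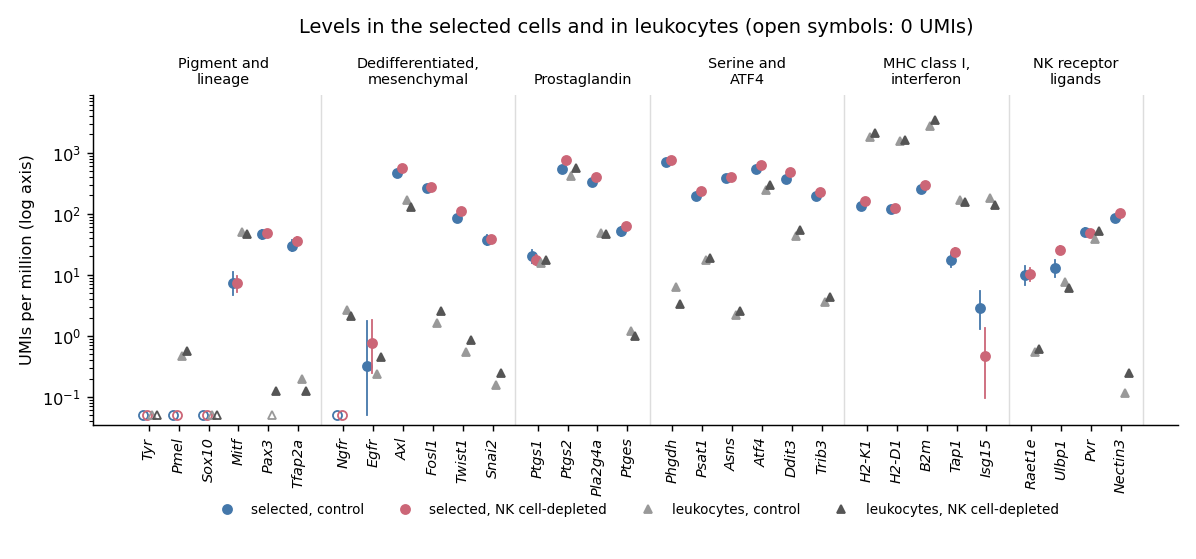
Level (CPM, log axis) of genes in 6 groups in the selected cells (circles, with 95% counting intervals) and the leukocytes (triangles) of the control and NK cell-depleted libraries; open symbols mark 0 UMIs. Axl, Fosl1, Asns and Trib3 lie above the leukocytes, Phgdh does so by the rule that chose the cells, and Tyr, Pmel and Sox10 lie at 0, and Mitf, H2-K1 and B2m lie below the leukocytes.

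The pigment program was nearly silent. Of 24 pigment and melanocyte lineage genes, 15 had 0 UMIs in both libraries. These were the melanin enzymes Tyr, Tyrp1 and Dct, the melanosome genes Pmel, Mlana, Slc45a2, Oca2, Gpr143 and Mlph, and Trpm1, Mc1r, Kit, S100b, Cdh1 and Sox10. Mitf, the master regulator of pigment genes, stood at 7.33 and 7.25 CPM, below the 50.02 and 46.9 CPM of the leukocytes. A Mitf UMI was found in 6.52% and 6.76% of thinned selected cells, against 36.8% and 39.2% of thinned leukocytes. The marker genes that define pigmented melanoma cells were thus at or near 0, and the label of melanoma rests on the other genes given here and on the spiked line.

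A pair of early neural crest and melanoblast regulators was expressed. Pax3 stood at 46.2 and 48.6 CPM and had a UMI in 44.6% of control (34.2 to 55.3%) and 42.0% of NK cell-depleted thinned cells (35.2 to 49.1%), against 0 and 0.211% of thinned leukocytes. Tfap2a stood at 30.0 and 36.2 CPM, against 0.197 and 0.123 CPM in the leukocytes. Both genes had overlapping counting intervals between the libraries. Of other members, Slc24a5, a melanosome ion exchanger, was at 6.37 and 3.39 CPM, and Rab27a, Rab38, Ednrb and Erbb3 were below 1 CPM in both libraries.

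Genes of the dedifferentiated, mesenchymal-like state were abundant in both libraries, but as a list not more so than in the leukocytes. The 28 genes listed for this state summed to 3526 and 3922 CPM, against 6762 and 7475 CPM in the leukocytes. Axl, the receptor tyrosine kinase that marks this state, was at 471 and 562 CPM. Thinned cells held a median of 4 Axl UMIs in control and 5 in the depleted library, and 96.7% and 98.6% of them held at least 1. Leukocytes also express Axl, and 56.1% and 47.4% of the thinned leukocytes held a UMI. The intermediate filament Vim was at 1369 and 1377 CPM, the AP-1 factors Fosl1 and Jun at 268 and 274 and at 221 and 218 CPM, and the hyaluronan receptor Cd44 at 209 and 267 CPM. Per thinned cell Vim had a mean of 13.9 and 13.1 UMIs, against 25.3 and 25.7 in the thinned leukocytes.

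Several transcription factors of the dedifferentiation list were present in the summed counts of both libraries. Twist1 had a UMI in 56.5% and 64.7% of thinned cells and Snai2 in 26.1% and 29.5%. Their presence in the same cells was not tested. Tcf4 stood at 194 and 230.3 CPM, Zeb2 at 152 and 192 CPM, Twist1 at 85.1 and 113 CPM, Zeb1 at 48.8 and 57.5 CPM and Snai2 at 37.0 and 39.0 CPM. Twist1 and Snai2 were under 1 CPM in the leukocytes, whereas Zeb2 was higher there than in the selected cells, at 1122 and 1400.4 CPM. The stem cell factor Sox2 was at 33.5 and 34.8 CPM, the Wnt ligand Wnt5a at 42.7 and 49.0 CPM, N-cadherin (Cdh2) at 61.2 and 76.9 CPM and fibronectin (Fn1) at 134 and 175 CPM. The urokinase receptor Plaur was at 90.5 and 104 CPM and the activin subunit Inhba at 63.7 and 82.9 CPM. Low members were Sox9 (3.505 and 10.6 CPM), Nuak1 (7.97 and 13.3 CPM), Pdgfrb (7.01 and 11.6 CPM), Aqp1 (1.91 and 4.78 CPM), Nes (3.505 and 3.70 CPM), Loxl2 (1.27 and 1.85 CPM), Nt5e (0.637 and 2.16 CPM) and Egfr (0.319 and 0.771 CPM). The neural crest receptor Ngfr, often used to mark another dedifferentiated state, had 0 UMIs, as did Tnc and Lox.

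The libraries were compared gene by gene as the log2 ratio of NK cell-depleted over control CPM. Genes needed a sum of 100 UMIs or more to be tested. The median of the 7784 such genes was 0.16, and every ratio below is relative to that median. Past 2-fold, 31 genes were higher in the depleted library (0.398% of the genes tested) and 7 were higher in control (0.0899%). Without the shift to the median gene these counts were 58 and 1. None of the 18 dedifferentiation genes with enough UMIs was past 2-fold in either direction. Their median was 0.08, 12 of them lay above 0, and the largest of these 18 ratios with an interval above 0 was that of Twist1, 0.24 (0.04 to 0.45).

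YAP and TEAD, the transcriptional arm of the Hippo pathway, drive a set of mechanically responsive genes, of which Cyr61, a secreted matrix protein, is among the best known. Its RefSeq promoter (gene Ccn1, mouse build GRCm38.p6, chr3:145649936-145650235, minus strand, 250 bases before to 50 after the start) is shown because Cyr61 was the only member of the YAP and TEAD list among the 15 genes that varied most between cells. The capitals mark the only match to GGAATG, the core TEAD letters, on either strand, read here in reverse at 103 bases before the start.

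Cyr61 promoter: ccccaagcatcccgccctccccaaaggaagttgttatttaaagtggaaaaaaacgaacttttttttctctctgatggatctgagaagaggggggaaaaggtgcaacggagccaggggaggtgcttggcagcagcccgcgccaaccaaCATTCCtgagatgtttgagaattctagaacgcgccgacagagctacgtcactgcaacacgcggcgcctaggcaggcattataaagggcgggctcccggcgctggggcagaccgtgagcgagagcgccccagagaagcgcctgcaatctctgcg

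These letters were found in 14.7% of all 32851 promoters of this length and in 8 of the 14 list members with an entry (57.1%). The list was assembled from known targets, so the share describes the list and shows no binding. Cyr61 stood at 355 CPM in control and 567 CPM in the depleted library, a log2 ratio of 0.51 (0.42 to 0.61). In the leukocytes it was at 0.551 and 1.48 CPM. The size of the ratio changed with the cells used. It was 0.87 without the deepest 5% of cells, 0.97 with equal weight per cell, 0.78 after thinning and 1.09 with at most 5% mitochondrial UMIs. In cells under 100 Gm42418 UMIs per 10000 it was 0.20, and in cells at 200 or more 1.18. Within the upper limits it was 3.44 (2.53 to 4.76). Those limits leave only 19 and 35 cells, with median depths of 3119 and 6295 UMIs. Across thinned cells it ranged from 0 to 30 UMIs in control and from 0 to 142 in the depleted library, with 0 in 37 and 53 cells. The selected cells thus differed widely in this gene. Tead1 was at 285 and 381 CPM, with a ratio of 0.26 (0.15 to 0.37), and Crim1, a growth factor binding protein, at 245 and 281 CPM. Over the 15 members tested the median ratio was 0.07, and none was past 2-fold as selected.

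Of the output genes of BRAF and MAPK signalling, none was past 2-fold between the libraries. Ccnd1 (cyclin D1) was at 1166 and 1250.2 CPM, the AP-1 factor Fosl1 as above, Phlda1 at 228 and 283 CPM and the ephrin receptor Epha2 at 188 and 254 CPM. The median ratio of the 18 members tested was 0.10. Among pathway components and tumor suppressors, the cell cycle inhibitor Cdkn1a was at 567 and 596 CPM, the p53 antagonist Mdm2 at 256 and 321 CPM, Nras at 169.8 and 218 CPM and Trp53 at 134 and 125 CPM. Cdkn2a, the gene of p16INK4a that the model lacks, was at 4.78 and 3.08 CPM, and Cdkn2b was at 0.

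Serine, glycine and folate synthesis and the ATF4 program were high in both libraries. ATF4 is the transcription factor of the integrated stress response, and Asns, the asparagine synthetase, and Trib3, a pseudokinase, are textbook targets. Their RefSeq promoters are shown because both genes were high in the selected cells and near absent from the leukocytes. The windows are chr6:7693160-7693459 for Asns and chr2:152344011-152344310 for Trib3, both on the minus strand of GRCm38.p6. Capitals mark the match to TGATGNAA, the core of the element that ATF4 binds with C/EBP partners, at 23 bases before the start in Asns and, in reverse, 15 bases after it in Trib3.

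Asns promoter: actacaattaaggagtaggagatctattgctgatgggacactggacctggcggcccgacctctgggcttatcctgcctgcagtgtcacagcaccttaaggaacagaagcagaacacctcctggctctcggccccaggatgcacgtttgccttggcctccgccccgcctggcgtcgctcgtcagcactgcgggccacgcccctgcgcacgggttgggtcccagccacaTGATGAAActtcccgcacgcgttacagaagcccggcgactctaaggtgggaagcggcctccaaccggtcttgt

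Trib3 promoter: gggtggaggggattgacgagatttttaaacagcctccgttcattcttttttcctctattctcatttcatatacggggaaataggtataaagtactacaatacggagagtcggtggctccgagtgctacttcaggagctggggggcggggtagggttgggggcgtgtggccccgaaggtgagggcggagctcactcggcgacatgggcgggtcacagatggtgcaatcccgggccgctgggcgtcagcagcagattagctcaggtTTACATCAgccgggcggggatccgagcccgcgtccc

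The letters TGATGNAA were found on either strand in 3.97% of all promoters and in 5 of the 20 list members with an entry (25%). Asns stood at 386 and 407 CPM in the selected cells and at 2.20 and 2.54 CPM in the leukocytes. Trib3 stood at 196 and 224 CPM, against 3.62 and 4.34 CPM. Atf4 itself was at 551 and 633 CPM, and the stress factor Ddit3 (CHOP) at 375 and 477 CPM. All 22 genes of the list had enough UMIs to be tested, their median ratio was 0.02, and none was past 2-fold.

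Members of the serine list did not all lie at the median. Slc7a5, a transporter of large amino acids, was at 106 and 164 CPM, a ratio of 0.47 (0.29 to 0.65). Chac1, which degrades glutathione, was at 117 and 169 CPM, a ratio of 0.36 (0.19 to 0.54). Aldh1l2, a mitochondrial folate enzyme, was lower, at 37.3 and 25.7 CPM, a ratio of -0.70 (-1.04 to -0.34). Per thinned cell the list summed to a median of 36.5 UMIs in control and 43 in the depleted library, against 7 and 8 in the leukocytes. These sums include Phgdh, which alone had a median of 7 UMIs in the selected cells of both libraries. The contrast thus follows in part from the rule. Phgdh, a member of this list, was used by the rule, so its presence in all 92 thinned control cells and 206 of 207 NK cell-depleted cells is a description.

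Genes of prostaglandin E2 synthesis were transcribed from phospholipase to synthase. Ptgs2, the gene of COX-2, held 1688 UMIs in control and 4960 in the depleted library, or 538 and 765 CPM. The log2 ratio was 0.35 (0.27 to 0.43). The leukocytes, which also express Ptgs2, stood at 410.1 and 571 CPM, a ratio of 0.48. Ptgs2 in the selected cells was thus higher in the depleted library, as it was in the leukocytes. With at most 5% mitochondrial UMIs the ratio in the selected cells was 0.06, without the deepest 5% of cells it was 0.20, and within the upper limits, which leave 19 and 35 cells, it was 1.54.

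Ptgs2 varied widely between the selected cells. Thinned cells held a mean of 5.74 ± 5.56 Ptgs2 UMIs (SD, 92 cells) in control and 7.97 ± 6.74 (SD, 207 cells) in the depleted library, with medians of 4 and 7 and maxima of 33 and 39. No Ptgs2 UMI was seen in 11 cells of each library, so it was detected in 88.0% of control (79.6 to 93.9%) and 94.7% of NK cell-depleted cells (90.7 to 97.3%). The Ptgs2 UMIs were spread over cells in one broad range in both libraries. A gene edited by CRISPR can still be transcribed, so the counts do not separate Ptgs-competent from Ptgs-deficient cells. Across cells, the genes closest to Ptgs2 by Spearman correlation over 5444 genes were Slc7a11 (0.33 and 0.31), Grem1 (0.42 and 0.29), Slc25a37 (0.33 and 0.27), Fth1 (0.27 and 0.35) and Tiparp (0.27 and 0.26). Such weak correlations in sparse counts are no finding.

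Ptgs1, the gene of COX-1, was low, with 63 and 114 UMIs (20.1 and 17.6 CPM), and its ratio of -0.36 (-0.81 to 0.11) had an interval that held 0. Pla2g4a, the cytosolic phospholipase A2, was at 338 and 404 CPM against 48.1 and 47.4 CPM in the leukocytes. The inducible prostaglandin E synthase Ptges was at 51.6 and 63.7 CPM, against 1.22 and 0.984 CPM there. Its constitutive relatives Ptges3 and Ptges2 were at 273 and 293 and at 10.5 and 10.6 CPM. The reductase Akr1b3 was at 66.0 and 59.8 CPM, Cbr1 at 3.82 and 5.24 CPM and the exporter Abcc4 at 25.5 and 33.5 CPM.

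Synthases of the other prostanoids, the degrading enzyme and most receptors were at or near 0. Ptgds, Ptgis, Hpgd, Ptger2, Ptger3, Ptgir and Tbxa2r had 0 UMIs in both libraries. Hpgds (1.27 and 0.617 CPM), Tbxas1 (0.319 and 0.308 CPM), the importer Slco2a1 (0.637 and 0.463 CPM), Ptgfr (0 and 0.154 CPM) and Ptger1 (0.637 and 1.08 CPM) were at or near the floor. Ptger4, a prostaglandin E2 receptor, was at 7.01 and 4.47 CPM, against 79.5 and 100.4 CPM in the leukocytes. Of the 22 genes 8 were tested, with a median ratio of 0.02 and 4 above 0.

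Antigen presentation by MHC class I was lower than in the leukocytes. The 16 genes of the list summed to 1330.3 CPM in control and 1497 CPM in the depleted library, against 8833 and 9993 CPM in the leukocytes. Per thinned cell the list had a median of 12 and 15 UMIs, against 71 and 88. B2m, the invariant light chain, was at 259 and 294 CPM, and the heavy chain H2-K1 at 132 and 164 CPM, against 1841 and 2075 CPM in the leukocytes. The chaperones Calr and Pdia3 were at 428 and 487 and at 212 and 234 CPM. The median ratio of the 11 genes tested was -0.02. Within the upper limits, over 19 and 35 cells, only 1 gene of the list could be compared, with a ratio of 0.99 (0.35 to 1.75).

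Interferon-response genes were also lower than in the leukocytes. The 35 genes summed to 374 and 369 CPM, against 4864 and 4717 CPM in the leukocytes. The kinases Jak1 and Jak2 were at 82.5 and 88.2 and at 33.5 and 34.7 CPM, and the interferon-induced membrane proteins Bst2 and Ifitm3 at 64.4 and 55.0 and at 54.8 and 51.6 CPM. Isg15, a ubiquitin-like protein induced by interferon, was at 2.87 and 0.463 CPM, while Gbp5, Iigp1 and Cxcl9 had 0 UMIs. Only 9 of the 35 genes could be tested, with a median ratio of -0.25 and 2 above 0.

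Ligands of NK cell receptors were transcribed at modest levels. The list summed to 611 and 720 CPM, against 3627 and 4067 CPM in the leukocytes. Nectin3, an adhesion molecule, was at 84.1 and 105 CPM, Cdh2 as above and the TRAIL receptor Tnfrsf10b at 42.1 and 53.3 CPM. Pvr, a ligand of the activating receptor DNAM-1, was at 50.3 and 48.3 CPM. Among ligands of the activating receptor NKG2D, Ulbp1 held 41 and 165 UMIs (13.1 and 25.4 CPM), a ratio of 0.79 (0.30 to 1.33), and Raet1e was at 9.88 and 10.3 CPM. Of the 25 genes 23 were in the files and 9 were tested, with a median ratio of 0.15, 7 above 0 and none past 2-fold.

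Of 26 secreted inflammatory factors, 18 had a UMI in control and 20 in the depleted library. Mif was at 689.5 and 708 CPM, the macrophage growth factor Csf1 at 399 and 512 CPM, the EGF-family ligand Hbegf at 127 and 127 CPM and Pdgfa at 126 and 123 CPM. Csf1 was at 21.1 and 28.4 CPM in the leukocytes. Il6 stood at 1.27 and 1.08 CPM, Il1b at 2.55 and 7.09 CPM and Ccl2 at 2.55 and 5.40 CPM, while Cxcl1, Cxcl5, Csf3, Il1a, Hgf and Il33 had 0 UMIs. The median ratio of the 9 genes tested was -0.12. Of the TNF and NF-kB list, Tnfaip2 was at 251 and 329 CPM, Cebpb at 208 and 233 CPM, the adhesion molecule Vcam1 at 124 and 158 CPM and Nfkb1 at 102 and 129.5 CPM. The median ratio of its 11 genes was 0.18, with 9 above 0, beside 0.33 in the leukocytes.

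No matrix, retinoid, glycolytic or heat shock gene of the lists was past 2-fold between the libraries. The metalloprotease inhibitor Timp2 was at 724 and 843 CPM, and the 19 matrix genes tested had a median ratio of 0.06. Col1a1, Col6a3, Lama4 and Mmp3 had 0 UMIs. Of the retinoid list, Rarg was at 55.8 and 49.3 CPM, Rxrb at 35.7 and 43.6 CPM and Fabp5 at 42.7 and 35.3 CPM, and the median of 7 genes was 0.02. Gapdh was at 1023 and 919 CPM, Pgk1 at 620.4 and 689 CPM, Pkm at 379 and 360.1 CPM and Ldha at 232 and 233 CPM, and the 22 glycolytic genes had a median of -0.01. The lowest of the 22 was the enolase Eno1, at 193 and 114 CPM, a ratio of -0.92 (-1.08 to -0.76), and -0.94 in the leukocytes. The chaperones Hsp90ab1 and Hspe1 were at 1739 and 1666 and at 1242 and 923 CPM, and Hsp90aa1 and Hspd1 at 789.9 and 810.0 and at 644 and 657 CPM. The immediate early and heat shock list had a median of -0.11 over 23 genes, beside 0.31 in the leukocytes.

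Cell cycle genes divided the selected cells into many quiet and few very active ones. The 54 genes of the G2 and M list, of which 52 were in the files, include the motors, kinases and condensins of mitosis. Per thinned cell the list had a median of 13 UMIs in control and 16 in the depleted library, with maxima of 135 and 250. At 30 or more list UMIs, 11 of 92 control cells (11.96%, 6.12 to 20.4%) and 31 of 207 NK cell-depleted cells (14.98%, 10.4 to 20.6%) were counted, and the intervals overlapped. These cells held 42.5% and 52.8% of the list's UMIs. Near that limit, between 25 and 35 UMIs, lay 1 and 7 cells. The proliferation marker Mki67 had a UMI in 10 control cells (10.9%, 5.34 to 19.1%) and 27 NK cell-depleted cells (13.0%, 8.78 to 18.4%). Leukocytes include cycling cells, and 19.3% and 12% of the thinned leukocytes had a Mki67 UMI.

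Mitotic transcripts came together in the same cells. The genes closest to Mki67 by Spearman correlation across the 92 and 207 cells, which share their library and thinned depth, were Cenpe (0.65 and 0.74), Cenpf (0.62 and 0.78), Racgap1 (0.60 and 0.59), Ube2c (0.58 and 0.69) and Top2a (0.52 and 0.60). The most abundant members of the list were Smc4 at 242 and 296 CPM, Cks1b at 181 and 199 CPM, Cbx5 at 145 and 168 CPM and Anp32e at 146 and 161 CPM. Of the S phase list, Pcna was at 37.9 and 56.1 CPM, Rrm1 at 31.5 and 46.4 CPM, Usp1 at 47.8 and 44.4 CPM and Nasp at 39.2 and 37.5 CPM. The 20 S phase genes tested had a median ratio of 0.05 and none was past 2-fold.

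**Figure D3:**
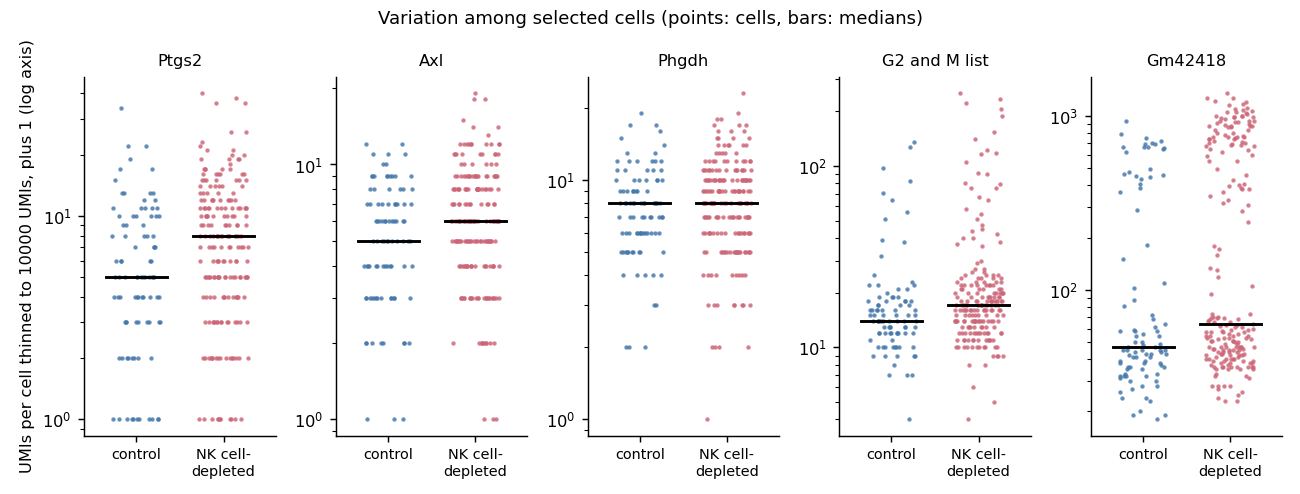
UMIs per cell plus 1 (log axis) after thinning to 10000 UMIs for Ptgs2, Axl, Phgdh, the G2 and M list and Gm42418 in 92 control and 207 NK cell-depleted selected cells; each point is 1 cell and bars mark medians. Ptgs2, Axl and Phgdh form one cloud per library, the G2 and M list has a long upper tail of few cells, and Gm42418 forms a low and a high cloud.

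Genes of G2 and M phase were among those past 2-fold between the libraries. The promoters of Plk1, the polo-like kinase that drives mitotic entry, and Top2a, the topoisomerase that untangles sister chromatids, are shown because both were past 2-fold. The windows are chr7:122159185-122159484 (plus strand) and chr11:99024140-99024439 (minus strand) of GRCm38.p6, from RefSeq. Capitals mark TTTGAA, the letters of the cell cycle homology region, on either strand. The match lies 31 bases after the start in Plk1, and 179 and, in reverse, 23 bases before it in Top2a.

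Plk1 promoter: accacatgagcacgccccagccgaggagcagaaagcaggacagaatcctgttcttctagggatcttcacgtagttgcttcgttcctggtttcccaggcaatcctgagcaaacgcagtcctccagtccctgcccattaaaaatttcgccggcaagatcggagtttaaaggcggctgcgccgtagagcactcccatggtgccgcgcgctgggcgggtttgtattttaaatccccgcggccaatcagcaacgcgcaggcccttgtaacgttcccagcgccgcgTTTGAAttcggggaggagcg

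Top2a promoter: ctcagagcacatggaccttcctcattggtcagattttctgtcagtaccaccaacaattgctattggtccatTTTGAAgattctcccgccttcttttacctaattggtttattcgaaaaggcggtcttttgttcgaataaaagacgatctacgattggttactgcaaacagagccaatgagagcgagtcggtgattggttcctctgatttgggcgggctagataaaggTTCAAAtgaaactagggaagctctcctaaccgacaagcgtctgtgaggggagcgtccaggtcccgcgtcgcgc

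TTTGAA was found in 17.9% of all promoters, in 33 of 48 G2 and M list members with an entry (68.8%) and in 12 of 23 such genes among the 31 higher in the depleted library (52.2%). The list was assembled from cell cycle genes, and the 31 genes were chosen by their ratio in these cells. The shares thus describe these sets and show no binding. Plk1 held 11 UMIs in control and 90 in the depleted library (3.505 and 13.9 CPM), a log2 ratio of 1.77 (0.92 to 2.88). Top2a held 135 and 684 UMIs (43.0 and 105 CPM), a ratio of 1.13 (0.86 to 1.41). In the leukocytes the Top2a ratio was -0.71. Both genes were higher in the depleted library. In control, however, 3.67% of the selected cells held all Plk1 UMIs, and 5 cells held 63.0% of the Top2a UMIs. In the depleted library the 5 leading cells held 54.4% and 38.9%.

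Other genes of the list differed in the same direction. Of the 46 G2 and M genes tested, 43 lay above 0 and 7 were past 2-fold. These were Top2a, Cenpf (30.9 and 74.2 CPM), Ckap2l (5.74 and 18.3 CPM), Aurkb (5.74 and 13.9 CPM), Kif11 (6.69 and 21.0 CPM), Kif20b (7.01 and 16.7 CPM) and Dlgap5 (3.82 and 13.6 CPM). Over all genes tested, 0.398% were past 2-fold in this direction. Weak genes such as Plk1 (11 and 90 UMIs) and the list member Dlgap5 (12 and 88 UMIs) reached the limit of 100 summed UMIs mostly through the depleted library. The counts of list genes and the list median thus partly follow from that limit. The list median was 0.58, and -0.37 in the leukocytes. Outside the list stood the mitotic regulators Foxm1 (11.5 and 39.5 CPM, 1.604), Aspm (7.97 and 26.7 CPM, 1.56), Ccnb1 (9.56 and 26.7 CPM, 1.30), Ccna2 (17.2 and 46.9 CPM, 1.27), Sgo1 (8.60 and 21.6 CPM, 1.14) and Spc25 (14.98 and 36.2 CPM, 1.10). Of other genes, Gm13075 (5.42 and 16.03 CPM), the brain noncoding RNA Bc1 (4.78 and 13.3 CPM), the sorting nexin Snx33 (6.37 and 16.3 CPM) and the natriuretic peptide Nppb (21.7 and 51.3 CPM, 1.07, 0.70 to 1.48) were past 2-fold. Nppb was detected in 32.1% of control and 28.3% of depleted selected cells, and 5 cells held 44.1% and 60.7% of its UMIs. Other genes past 2-fold included Iqgap3, Cit, Smc2, Terf2ip, Noa1, Med20, Kpna2, A330069E16Rik, Zswim4, Sgo2a, Ddias and Pip4k2b.

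The cell cycle difference did not hold when the limit on leukocyte UMIs was relaxed. Allowing up to 2 UMIs of the leukocyte genes gave 128 control and 269 NK cell-depleted cells. The median ratio of the G2 and M list was then -0.14, the ratio of Plk1 -0.05 and that of Mki67 -0.52. Of the 31 genes, 8 stayed past 2-fold and 24 kept their direction. The 19 control cells so added included 8 with 30 or more list UMIs (42.1%, 20.3 to 66.5%), whereas 3 of the 33 thinned cells added to the depleted library did (9.09%, 1.92 to 24.3%). With them, 18.0% of control cells (11.4 to 26.4%) and 14.6% of NK cell-depleted cells (10.4 to 19.7%) were at 30 or more. The macrophage list was at 77.6 CPM in the added control cells and 74.9 CPM in the selected ones, and at 93.9 against 62.1 CPM in the depleted library. Lyz2 was at 15.7 against 12.1 CPM in control and at 24.97 against 14.6 CPM in the depleted library. Cd74, an MHC class II chaperone, was at 13.5 against 5.098 CPM and at 3.996 against 5.09 CPM. The part of leukocyte RNA in this setting was not tested. When every cell had the same weight the list median was 0.14, after thinning it was 0.23, and over the thinned cells under 30 list UMIs it was 0.10.

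**Figure D4:**
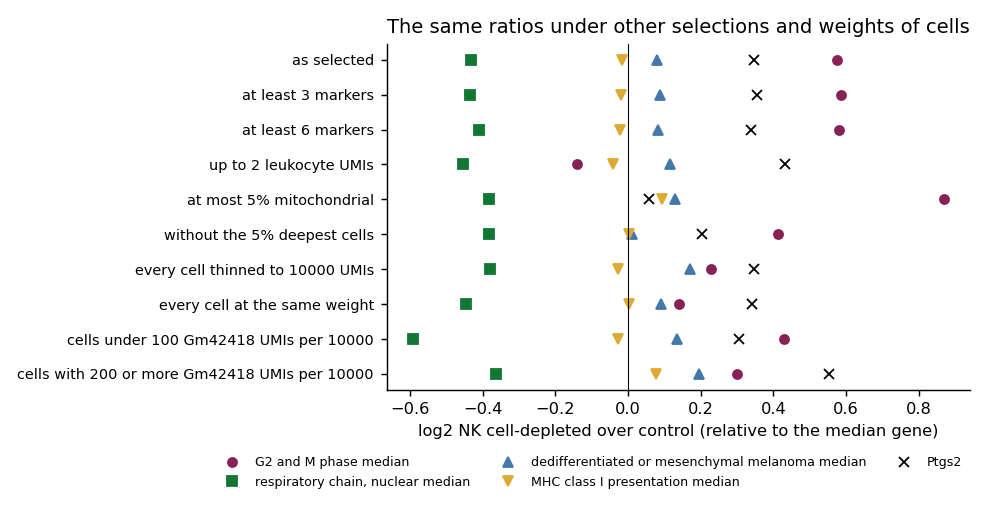
Log2 ratio of NK cell-depleted over control (horizontal axis) in the selected cells under 10 selections and weights of cells (vertical axis), as the median of 4 gene lists and the ratio of Ptgs2. The G2 and M list lies below 0 when up to 2 leukocyte UMIs are allowed, whereas the respiratory chain list stays below 0 at every setting shown.

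Genes higher in control were fewer as selected, and none was on the G2 and M or S phase lists, though histone genes were among them. In cells under 100 Gm42418 UMIs per 10000, 20 genes were past 2-fold in each direction. Gm10073, a predicted gene known by its number, was at 40.1 and 15.9 CPM, a ratio of -1.498 (-1.89 to -1.11), and -1.004 in the leukocytes. The chromatin protein gene Hmga1 was at 54.5 and 28.5 CPM, a ratio of -1.10 (-1.40 to -0.79). The keratin Krt10 followed at -1.14, 0610010K14Rik at -1.08, the histones Hist1h4d and Hist1h1e at -1.07 and -1.06, and the lactate dehydrogenase subunit Ldhb at -1.01. Next, short of 2-fold, came Lppos (-0.97), Pyurf (-0.95) and Hoxd3os1 (-0.93). In the leukocytes the ratio was -1.33 for Hist1h4d, -0.79 for Hist1h1e, -0.75 for 0610010K14Rik, -0.58 for Hmga1, -0.26 for Ldhb and 0.02 for Krt10. With up to 2 leukocyte UMIs allowed, 6 of the 7 genes stayed past 2-fold.

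**Figure D5:**
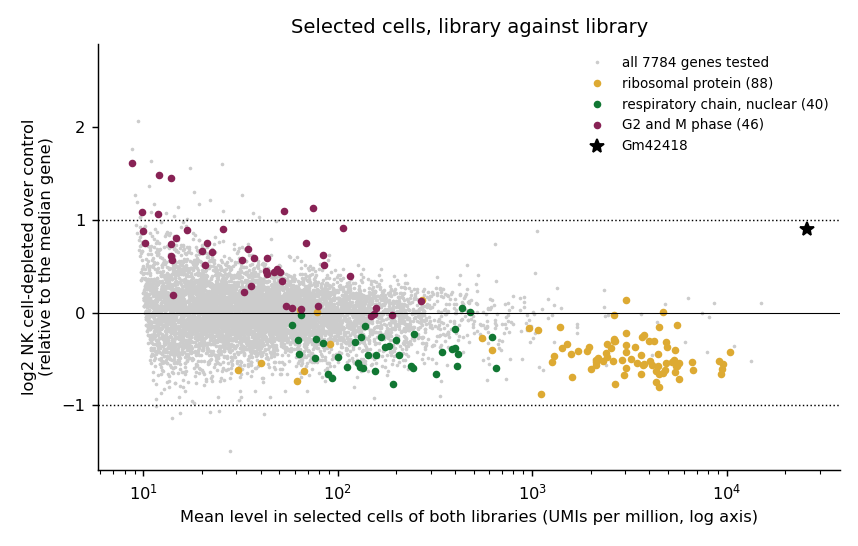
Log2 ratio of NK cell-depleted over control CPM, relative to the median gene (vertical axis), against mean CPM (log axis) for the 7784 genes tested in the selected cells, with dotted lines at 2-fold. The 46 G2 and M genes lie mostly above 0, the 40 respiratory chain genes and the 88 ribosomal protein genes mostly below, and Gm42418 (star) lies at 0.91.

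Nuclear genes of the respiratory chain were lower in the depleted library, each by less than 2-fold. Of 40 genes, 38 lay below 0, with a list median of -0.43. Cox7c, a subunit of complex IV, was at 744 and 550.4 CPM, a ratio of -0.60 (-0.67 to -0.52), and Cox4i1 at 646 and 602 CPM. The ATP synthase subunits Atp5b and Atp5a1, at 451 and 506 and at 403 and 468 CPM, were the pair above 0. Per thinned cell the list had a median of 92 UMIs in control and 79 in the depleted library. The leukocytes of the same libraries had a list median of -0.29, so the shift was shared by cells of another kind in the same library, and its cause was not tested. Ribosomal protein genes behaved alike, with 83 of 88 below 0, a median of -0.50, and -0.36 in the leukocytes. They took 33.2% of the selected cells' UMIs in control and 26.6% in the depleted library.

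Gm42418, a transcript that overlaps a ribosomal RNA locus, split the selected cells into low and high ones. Its level was 16640 CPM in control and 34914 CPM in the depleted library, a ratio of 0.91, beside 0.54 in the leukocytes. At 200 or more UMIs per 10000 lay 24 of 92 control cells (26.1%, 17.5 to 36.3%) and 83 of 207 NK cell-depleted cells (40.1%, 33.4 to 47.1%). Under 100 lay 65 and 116 cells, and only 3 and 8 between. Among the leukocytes, 66 of 440 and 115 of 475 were that high. Median depth was 28243 UMIs in low and 25835.5 in high control cells, and 26858.5 and 29533 in the depleted library, so depth did not move one way. Of 4079 genes comparable in both libraries, 6 were past 2-fold higher in the high cells of both, and none was lower in both. Gm42418 itself, which chose the cells, was 1 of the 6. The others, named after their values were seen and given with no test, were AY036118 (4.03 and 4.19), Lars2 (1.49 and 1.76), Fcf1 (1.28 and 1.34), Uqcrb (1.20 and 1.23) and Sap18 (1.06 and 1.25). Because the libraries held unequal shares of high cells, each comparison was repeated within them. The respiratory chain median was -0.59 in low and -0.36 in high cells, and that of the G2 and M list was 0.43 and 0.30.

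Gm42418 also led the genes that varied most between cells, with a variance over mean of 334 in control, against a median of 1.08 over 5444 genes. S100a6, a calcium-binding protein, followed at 36.8 and ranged from 6 to 442 UMIs per thinned control cell and from 18 to 359 in the depleted library. The rest of the leading 15 were Malat1, Rpl37a, Rpl41, mt-Co1, Ftl1, Fth1, Egr1, Cyr61, mt-Cytb, Vim, Rps26, mt-Nd4 and Hspa5. The iron storage genes Ftl1 and Fth1 had medians of 34 and 60 UMIs in control, and 33 and 55 in the depleted library. Vim ranged from 2 to 64 and from 1 to 120 UMIs. Neither a pigment gene nor Ptgs2 was among the 15.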

How the data were processed

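Filtered matrices of UMI counts per gene and cell barcode, deposited by the authors, were used, 1 per library and with 31053 genes each; the file header names Cell Ranger 3.0.2, and the submitters' processing notes name bcl2fastq and mm10. The libraries were 3′ libraries from 16000 loaded cells (11 cDNA and 14 index cycles). The authors' normalized table was not used. Counts were summed over the selected cells of each library. Genes with at least 100 UMIs over both were compared, with 0.5 UMIs added, as log2 CPM ratios centred on the median gene. Shares have exact Clopper-Pearson intervals, ratios exact conditional binomial intervals and levels exact Poisson intervals, all at 95%, all for counting error only. A group of 1 library allows no test. Cells with at least 10000 UMIs were thinned at random. Doublets were not called: cells with a leukocyte UMI were left out by the rule, and the selection was repeated without the deepest 5%. The ratios and their intervals were tested on simulated Poisson totals per gene and library. The simulation held no cells, so it does not cover the clustering of UMIs within few cells. Promoters came from RefSeq (GRCm38.p6). The analysis used Python 3.11.15, numpy 2.4.6, scipy 1.17.1, pandas 2.3.3 and matplotlib 3.10.9.

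The members and gene lists were chosen with earlier results of these data known. Named were all genes of the rule and of the pigment, dedifferentiation and prostaglandin lists; the 4 most abundant genes and those past 2-fold of every other list; the 10 largest ratios in each direction among genes at least as high in the selected as in the other cells; the 20 genes highest over the other cells; the 15 most variable genes; and the 5 genes closest to Ptgs2 and Mki67. Slc7a5, Chac1, Aldh1l2, Trib3, Cdkn2a, Eno1, Cd74, Isg15, Pvr, Ulbp1, Raet1e, Il6, Il1b, Ccl2, Lyz2, Plk1, Nppb and the genes linked to Gm42418 were named after their values were seen. A few genes that the rule names are not reported here. The leukocyte reference and the split by Gm42418 were added after seeing the data.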

Additional observations from a re-analysis of the deposited data

Results flagged for a closer look

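Cells that had at least 4 marker genes and also a UMI of Ptprc, Csf1r or Cd3e lay outside the selection. They made up 0.600% of kept control cells (33 cells, 0.413 to 0.841%) and 1.09% of kept NK cell-depleted cells (53 cells, 0.818 to 1.42%). These cells were outside the main measurement, and the intervals overlapped. Exactly 1 leukocyte UMI was present in 16 and 32 of them, 10 or more in 6 and 8, and all 8 marker genes in 25 and 44. They were 23.2% and 18.5% of all cells with the marker genes. Their origin was not tested.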

How the results depend on the processing

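No paired analysis was possible because each group had 1 library. Ratios are log2, NK cell-depleted over control. Within the authors' upper limits Ptgs2 was 1.54, dedifferentiation 0.21 over 2 genes, MHC class I 0.99 for 1 gene and respiratory chain -0.33 over 12 genes, and no G2 and M gene could be compared. With at least 6 markers the respiratory chain was -0.41 and glycolysis 0.0088. With up to 2 leukocyte UMIs, 16 genes were higher in the NK cell-depleted library and 11 in control, and Ptgs2 was 0.43, Mki67 -0.52, Ube2c -0.24, Plk1 -0.047, Cenpf -0.28, dedifferentiation 0.12, G2 and M -0.14, respiratory chain -0.45 and heat shock 0.0022. With at most 5% mitochondrial UMIs the ratio of shares was 1.67, Mki67 was in 18.6% of NK cell-depleted cells, and Ptgs2 was 0.057, dedifferentiation 0.13, G2 and M 0.87, prostaglandin -0.042, MHC class I 0.094 and respiratory chain -0.38. Without the 5% deepest cells 19 genes were higher in the NK cell-depleted library, and Ptgs2 was 0.20, dedifferentiation 0.0104, G2 and M 0.41, glycolysis 0.0071 and respiratory chain -0.38. In cells with 10000 or more UMIs glycolysis was 0.014. Chosen after seeing the data, cells under 100 Gm42418 UMIs per 10000 gave 20 and 20 genes, Nppb -0.077, Gm42418 -0.084, dedifferentiation 0.14, G2 and M 0.43 and respiratory chain -0.59. Cells at 200 or more gave 2 genes higher in control, Ptgs2 0.55, Ddit3 and the serine list -0.0069, dedifferentiation 0.20, G2 and M 0.30, MHC class I 0.078, glycolysis 0.18, respiratory chain -0.36 and heat shock 0.073. Thinned cells gave 8 and 1 genes, Mki67 -0.16, dedifferentiation 0.17, G2 and M 0.23 over 25 genes and respiratory chain -0.38. With equal weight per cell 47 and 28 genes were counted, Mki67 was -0.24, Ube2c -0.12, Cenpf -0.075, G2 and M 0.14 and the serine list -0.024. Plain CPM gave 58 and 1 genes, Ptgs2 0.51, dedifferentiation 0.24, G2 and M 0.74, MHC class I 0.14, glycolysis 0.15, respiratory chain -0.27 and heat shock 0.052. At 1 or more UMI per gene 884 and 1261 genes were past 2-fold, with dedifferentiation 0.16, prostaglandin -0.068 and MHC class I -0.075, and at 20 or more UMIs 190 and 82 genes. The causes were not tested, apart from the smaller cell or UMI numbers that several settings leave by construction. Of the main results under other settings, 60 values were labelled the same, 54 moved and 1 reversed. Of the further values, 331 were the same, 126 moved and 23 reversed. Reversed meant the opposite sign of a ratio whose interval held a single sign. The labels used fixed limits for counts of genes and the intervals as selected for shares and ratios. For list medians the interval was that of the summed list. The labels are thus no measure of counting error alone. Counts under about 100 UMIs limit the ratios of single genes, and 3 UMIs set the floor.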

Other observations

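Nppb, the gene of a natriuretic peptide, was past 2-fold higher in the NK cell-depleted selected cells, at 21.7 CPM in control and 51.3 CPM in the other library, and was under 1 CPM in the leukocytes of both. In the depleted library 5 cells held 60.7% of its UMIs, and it was detected in 28.3% of the cells there, against 32.1% in control. Among cells under 100 Gm42418 UMIs per 10000 its ratio was -0.077, and among those at 200 or more 2.09 (1.34 to 3.07). In the cells at 200 or more, the 40 respiratory chain genes were higher than in the cells under 100, with a median log2 ratio of 0.38 in control and 0.56 in the other library, while Ptgs2 differed by -0.13 and 0.10.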
